A study of Mus musculus with 106 samples.

Results

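The liver response of CAST/EiJ f mice to a high-fat diet was measured by comparing 3 livers from mice fed the high-fat diet (HFD) with 3 livers from mice fed chow (CD), with 1 RNA-seq library per mouse and all 14330 genes of the count table compared. The members were the samples whose titles read CAST/EiJ f HFD or CAST/EiJ f CD, which are 6 samples of a study of 9 inbred strains, both sexes and both diets, with 100 further samples outside this comparison. CAST/EiJ is an inbred strain derived from wild mice of the castaneus subspecies. The labels name no engineered allele and no treatment other than the diet, which started at an age of 8 weeks and lasted until collection at 21 weeks. Of the calories of the high-fat diet, 60% came from fat and 20% each from carbohydrate and protein, whereas chow calories were 74% carbohydrate, 20% protein and 6% fat. All livers were perfused with saline, the gallbladder was removed and collection was in the morning with food freely available. The animal numbers in the sample labels fall in separate ranges for the 2 diets of CAST/EiJ f, so diet and whatever else those ranges stand for cannot be told apart. The 6 CAST/EiJ m samples, 3 on each diet, and the 48 f samples of the other 8 strains (WSB/EiJ, PWK/PhJ, C57BL/6J, A/J, DBA/2J, NZO/HlLtJ, NOD/ShiLtJ and 129S1/SvImJ) served for comparison.

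The liver makes cholesterol from acetyl-CoA through a chain of enzymes whose genes are switched on together by the transcription factor SREBP2 when cell cholesterol is low, and switched off when cholesterol is plentiful. It also oxidises fatty acids under the control of the nuclear receptor PPARα, clears drugs and bile constituents with cytochrome P450 enzymes and transporters under the receptors CAR and PXR, and secretes most plasma proteins, including complement and acute phase proteins. Between the hepatocytes lie Kupffer cells, which are resident macrophages, and sinusoidal endothelial cells.

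The 6 libraries held 44336962 to 63341708 counts in genes, and TMM scaling factors ranged from 0.876 to 1.06. Xist was at 219 to 287 CPM (normalised read counts, scaled by library size and TMM factor) in CAST/EiJ f and at most 2.13 CPM in CAST/EiJ m, which matched the sex labels. Of 9 hepatocyte markers found, 0 were called (edgeR, 0 also at an unadjusted p under 0.05 and 0 by DESeq2), and their summed level was 125593 to 160375 CPM on CD and 117968 to 153585 CPM on HFD. The libraries of a diet were not uniformly closest to each other. The median absolute log2 difference over genes was 0.225 to 0.322 between CD libraries, 0.193 to 0.289 between HFD libraries and 0.206 to 0.432 across diets. HFD library 1 was nearer to CD library 3 (0.206) and CD library 2 (0.237) than to HFD library 2 (0.247) or HFD library 3 (0.289), and it was the HFD library farthest from the other two in 1100 of the 1869 genes called below and in 6376 of all 14330 genes. Where results rest on CD library 1, HFD library 1 or HFD library 3, the values without that library are given. In whole tissue, fewer cells of a type and less RNA per cell cannot be told apart.

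At an adjusted p under 0.05 (edgeR quasi-likelihood test with the spread estimated over all 36 groups, Benjamini-Hochberg adjustment over all genes), 1869 of 14330 genes differed between the diets in CAST/EiJ f, which is 13.0% of the genes tested. Of these, 963 were higher on HFD (6.72% of all genes) and 906 lower (6.32%). The median log2 fold change over all genes was -0.002, the median absolute change of the called genes was 0.69, and 497 called genes changed by at least 1 on the log2 scale. The 3 HFD values lay wholly above the 3 CD values in 713 called genes (4.98% of all genes), wholly below in 649 (4.53%), and overlapped them in 507 (3.54%). The test favours genes with such separation, and its share among all genes, called or not, is not given here. The number of calls depended strongly on single libraries. It was 574 without CD library 1, 1347 without CD library 3, 2740 without HFD library 1, 524 without HFD library 2 and 638 without HFD library 3. Of the 1869 genes, 258 were called in the full fit and in all 6 fits that each left out 1 CAST/EiJ f library, 110 of them higher and 148 lower. These are named below as genes whose call held in all 6 refits. When the spread was estimated from the 6 libraries alone, 5 genes were called: Tm7sf2, Sqle, Pmvk and Cyp2b10 were lower, and C9 was higher.

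**Figure D1:**
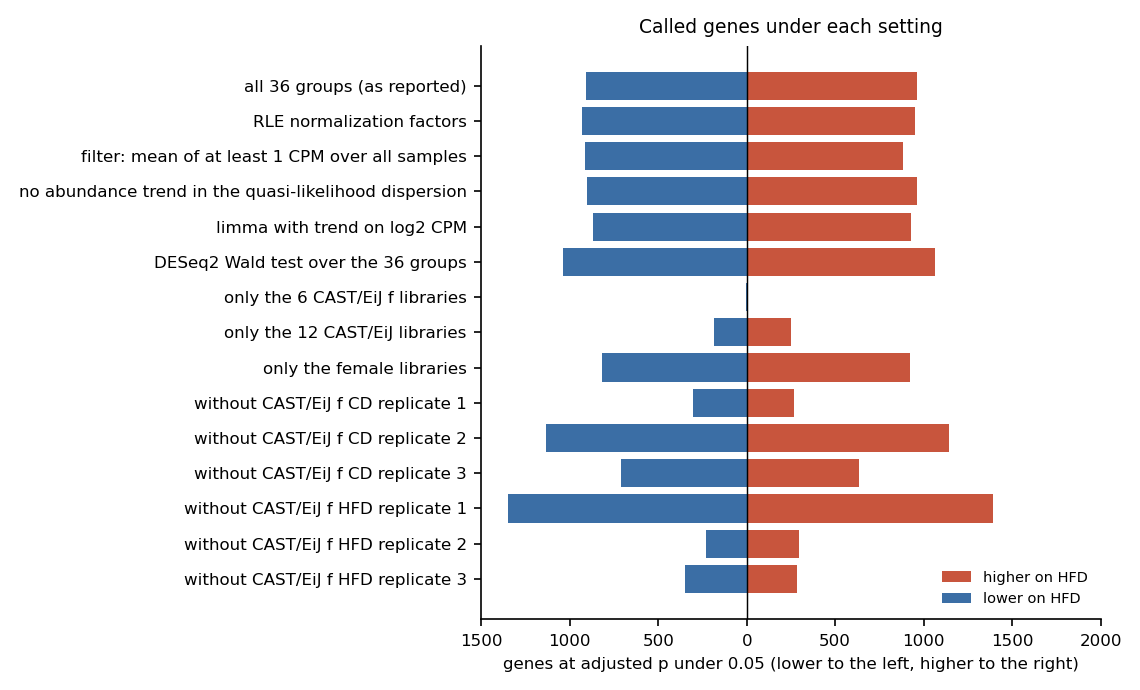
Bars give the number of genes at adjusted p under 0.05 in CAST/EiJ f for each setting, with genes lower on HFD to the left and higher on HFD to the right of 0. Counts stayed near the 1869 of the full fit under other normalisations and tools, fell to 524 to 638 when CD library 1, HFD library 2 or HFD library 3 was left out, rose to 2740 without HFD library 1 and were 5 with the 6 libraries alone.

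Several genes of cholesterol synthesis fell. Of 29 listed genes of cholesterol synthesis and uptake found in the table, 10 were lower on HFD and 0 higher, so 34.5% were lower against 6.32% of all genes, and the median log2 change of the list was -0.39 (-0.21 without HFD library 1), with 20 of the 29 below 0 and 9 above. The summed level of the list overlapped between the diets, at 1955 to 2766 CPM on CD and 1603 to 2033 CPM on HFD. Tm7sf2, a sterol reductase of the late pathway, fell from 104, 111 and 109 CPM in the 3 CD livers to 20.0, 18.4 and 15.7 CPM in the 3 HFD livers. The 2 diets were far apart in every library, and the log2 fold change was -2.58 ± 0.28 (SE, n = 3 per diet, adjusted p = 4.8e-10). Sqle, squalene epoxidase, was at 24.6, 20.6 and 19.0 CPM on CD and at 3.98, 3.68 and 3.98 CPM on HFD, a log2 change of -2.46 ± 0.52 (adjusted p = 0.0010). Pmvk, phosphomevalonate kinase, was at 8.03, 8.54 and 9.23 CPM on CD and 2.11, 2.32 and 2.06 CPM on HFD (log2 change -1.99 ± 0.20, adjusted p = 6.2e-11).

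Cyp51, the lanosterol demethylase, was at 22.9, 15.0 and 20.1 CPM on CD and at 5.59, 3.55 and 4.58 CPM on HFD (log2 change -2.08 ± 0.38, adjusted p = 0.00015). Dhcr7, which makes cholesterol from its direct precursor, was at 32.6, 23.7 and 36.9 CPM on CD and at 13.7, 7.46 and 12.8 CPM on HFD (log2 change -1.46 ± 0.28, adjusted p = 0.00033). The calls of these 5 enzymes held in all 6 refits. Other called members included Msmo1 (log2 change -1.76), Nsdhl (-1.29) and Scap (-0.39). Without HFD library 2 the adjusted p was 0.084 for Msmo1, 0.076 for Nsdhl and 0.090 for Scap, and without HFD library 3 it was 0.055 for Msmo1 and 0.090 for Scap. The call of Scap was also lost without CD library 1 (0.12), CD library 3 (0.065) or HFD library 1 (0.050).

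Not every gene of the list passed the test. Insig1, which holds SREBP in the endoplasmic reticulum, had a log2 change of 0.58 ± 0.39 (adjusted p = 0.32). Srebf2 itself was at 31.6 to 39.1 CPM on CD and at 28.3 to 38.7 CPM on HFD. The number of list members called lower was 9 without CD library 1, 8 without CD library 3, 9 without HFD library 1, 5 without HFD library 2 and 7 without HFD library 3, and it was 3 with the 6 libraries alone. Without HFD library 1, 1 member was called higher. In CAST/EiJ m, 12 of the 29 were lower and 0 higher, against 2.49% lower and 1.83% higher of all genes in m. Among the 12 were Tm7sf2 (-2.05, adjusted p = 2.6e-07), Sqle (-2.51, adjusted p = 0.0012) and Pmvk (-1.52, adjusted p = 1.3e-07).

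The promoters of 3 of the genes that fell are shown because these genes moved together. Promoter sequences for 7 of the 10 called genes were matched by symbol in RefSeq (build GRCm38.p6, the C57BL/6J reference and not CAST/EiJ sequence), each from 250 bases before to 50 bases after a transcription start. A CCAAT box (letters CCAAT on either strand, the binding letters of NF-Y) was present in 6 of the 11 windows of these 7 genes, since 3 of them have more than 1 start, and in 20 of the 28 windows of the whole list, against 37.4% of all 32851 windows in that table. A sterol regulatory element written as TCACNCCAC on either strand was present in 0 of the 11 windows and in 1.24% of all windows. Among the 22 list genes with a window it was found in Hmgcs1 alone, a gene at 20.8 to 31.7 CPM on CD and 22.7 to 25.4 CPM on HFD. Each promoter is written 5′ to 3′ in the direction of transcription with CCAAT or its reverse complement ATTGG in capitals.
Tm7sf2, chr19:6067801-6068100, minus strand: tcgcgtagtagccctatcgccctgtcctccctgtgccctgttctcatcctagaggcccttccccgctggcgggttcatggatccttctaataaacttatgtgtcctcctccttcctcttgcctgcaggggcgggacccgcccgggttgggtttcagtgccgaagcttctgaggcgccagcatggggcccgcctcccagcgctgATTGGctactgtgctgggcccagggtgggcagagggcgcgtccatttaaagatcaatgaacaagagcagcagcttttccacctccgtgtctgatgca
Cyp51, chr5:4104648-4104947, minus strand: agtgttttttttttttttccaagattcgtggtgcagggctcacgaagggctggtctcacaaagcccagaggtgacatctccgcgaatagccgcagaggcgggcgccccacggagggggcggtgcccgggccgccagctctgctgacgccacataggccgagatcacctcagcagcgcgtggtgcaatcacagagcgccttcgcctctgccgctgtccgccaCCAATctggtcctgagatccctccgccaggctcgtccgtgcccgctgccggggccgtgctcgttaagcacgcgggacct
Pmvk, chr3:89454291-89454590, plus strand: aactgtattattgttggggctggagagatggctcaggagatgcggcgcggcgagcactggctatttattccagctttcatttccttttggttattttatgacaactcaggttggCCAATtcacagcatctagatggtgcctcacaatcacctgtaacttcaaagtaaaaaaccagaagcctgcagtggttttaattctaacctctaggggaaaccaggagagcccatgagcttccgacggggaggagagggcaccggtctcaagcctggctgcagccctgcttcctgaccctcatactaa
Each of the 3 windows held 1 CCAAT box, and a window at another start of Pmvk in the table held 0. In the GENCODE M21 annotation of GRCm38, Tm7sf2 lies on chromosome 19 from 6062821 to 6068373 on the minus strand and overlaps Vps51 on the same strand, so reads in the shared stretch could belong to either gene.

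**Figure D2:**
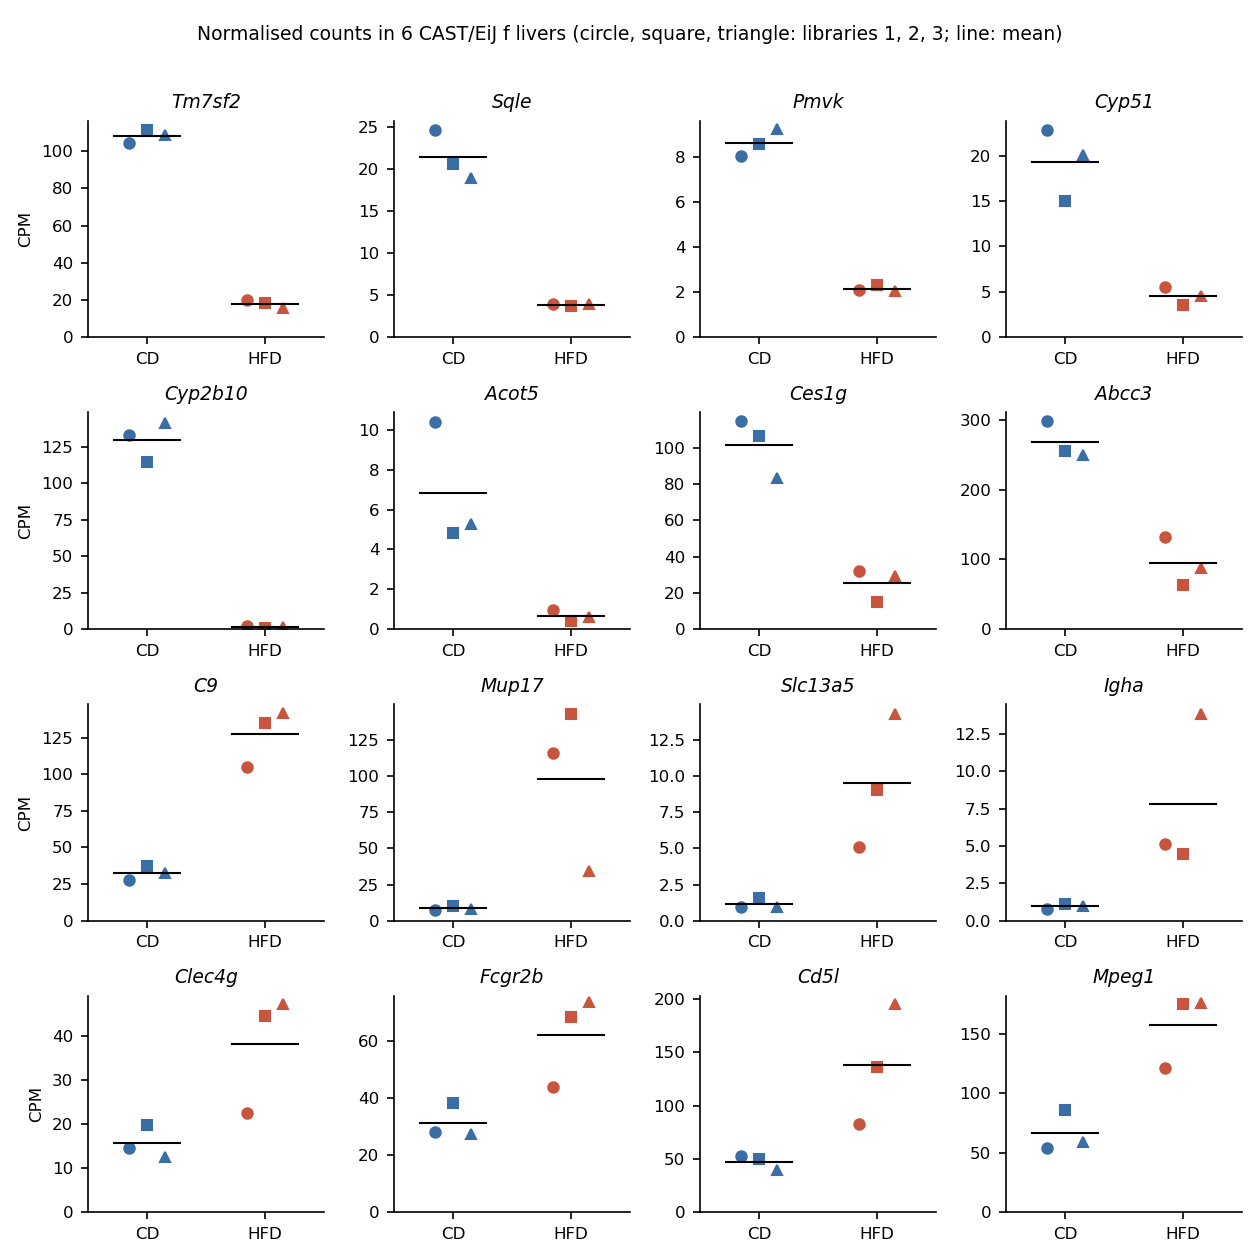
Each panel plots the normalised count (CPM) of 1 gene in the 3 CD and 3 HFD livers of CAST/EiJ f, with a separate linear axis from 0; symbols mark libraries 1, 2 and 3 of each diet and the line is the mean. The cholesterol synthesis genes and Cyp2b10 show no overlap and small spread on HFD, while in Fcgr2b, Clec4g and Cd5l HFD library 1 is the lowest of the 3 HFD values.

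Cyp2b10, a cytochrome P450 and the classic target of CAR, had the largest fall among the genes named by the rule. It was at 133, 115 and 142 CPM on CD and at 2.08, 0.624 and 1.35 CPM on HFD, a log2 change of -6.58 ± 1.00 (adjusted p = 5.0e-06). Its call held in all 6 refits. In CAST/EiJ m it was near 0 on both diets, at most 0.275 CPM. The gene lies on chromosome 7 from 25897620 to 25926624 and belongs to a family of near-identical copies, so the assignment of its reads is uncertain. Its relative Cyp2b9 went the other way, with 70.5, 59.7 and 41.7 CPM on CD and 122, 163 and 264 CPM on HFD (log2 change 1.68 ± 0.44, adjusted p = 0.0080, and 0.092 without HFD library 3). Of 36 drug metabolism genes, 3 were higher and 3 lower, shares of 8.33% each against 6.72% higher and 6.32% lower of all genes. The number higher was 6 without CD library 2 or HFD library 1 and 1 without any other single library. Besides Cyp2b10 the lower ones were Ces1g, a carboxylesterase (114, 107 and 83.5 CPM on CD, 32.2, 15.0 and 29.5 CPM on HFD, log2 change -1.99 ± 0.38, adjusted p = 0.00024), and Ces2a (log2 change -0.86 ± 0.20, adjusted p = 0.0021). Ugt2b1, a glucuronosyltransferase, rose from 141, 180 and 151 CPM to 272, 459 and 323 CPM (log2 change 1.16 ± 0.24, adjusted p = 0.00088).

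Abcc3 and Abcc4, which carry bile acids and conjugates out of the hepatocyte toward blood, were lower. Abcc3 was at 299, 255 and 249 CPM on CD and at 132, 62.9 and 87.4 CPM on HFD (log2 change -1.51 ± 0.22, adjusted p = 2.2e-06). Abcc4 was at 3.95, 20.0 and 14.1 CPM on CD and at 2.30, 4.58 and 2.13 CPM on HFD (log2 change -2.08 ± 0.35, adjusted p = 3.3e-05), with CD library 1 inside the HFD range. Cyp8b1, which sets the share of cholic acid among bile acids, was at 1816, 514 and 1473 CPM on CD and at 674, 366 and 341 CPM on HFD (log2 change -1.46 ± 0.32, adjusted p = 0.0012), and the groups overlapped. Slco1a1, an uptake transporter with higher levels in males in common laboratory strains, rose from 18.0, 28.2 and 13.7 CPM to 57.2, 102 and 64.3 CPM (log2 change 1.90 ± 0.58, adjusted p = 0.021, with 0.10 without CD library 1, 0.092 without CD library 3 and 0.12 without HFD library 2). Of the 28 bile acid genes found, 4 were higher and 4 lower, 14.3% each, against 6.72% higher and 6.32% lower of all genes. The number higher was 0 without CD library 1 or HFD library 2 and 1 without CD library 3 or HFD library 3. Cyp7a1, the rate-limiting enzyme of bile acid synthesis, was at 5.05, 28.9 and 220 CPM on CD and at 382, 61.3 and 16.7 CPM on HFD, so the spread within each diet was larger than any difference between them.

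Of 43 genes of fatty acid oxidation and PPARα targets, 1 was higher and 3 lower (2.33% and 6.98%, against 6.72% and 6.32% of all genes), with a median log2 change of -0.14, or -0.04 without CD library 1. The list summed to 43645, 33666 and 34494 CPM on CD and to 28626, 25309 and 29157 CPM on HFD, so that every HFD liver was below every CD liver. Without HFD library 1, 4 were called in each direction, and without CD library 2, 5 were lower. The 3 lower ones were omega-hydroxylases of the Cyp4a family. Cyp4a14 was at 6732, 4456 and 4529 CPM on CD and at 2088, 772 and 634 CPM on HFD (log2 change -2.17 ± 0.47, adjusted p = 0.0013). Cyp4a31 was at 182, 160 and 132 CPM on CD and at 68.2, 81.9 and 59.7 CPM on HFD (log2 change -1.18 ± 0.28, adjusted p = 0.0032). Both calls held in all 6 refits, whereas Cyp4a10 (log2 change -1.09 ± 0.35, adjusted p = 0.028) had an adjusted p of 0.13 without CD library 1 and 0.15 without HFD library 2 or HFD library 3. The 1 higher gene was Ppara itself, at 47.5, 65.3 and 45.6 CPM on CD and 67.0, 106.1 and 153 CPM on HFD (log2 change 1.04 ± 0.25, adjusted p = 0.0032, and 0.10 without HFD library 3). Acot5, a peroxisomal acyl-CoA thioesterase, fell from 10.4, 4.81 and 5.25 CPM to 0.957, 0.409 and 0.630 CPM (log2 change -3.35 ± 0.40, adjusted p = 1.6e-08). Cpt1a, the gate of mitochondrial import, had a log2 change of 0.24 ± 0.20 (adjusted p = 0.46).

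Genes of lipid storage and fat uptake were lower where they were called. Of 27, 0 were higher and 5 lower (18.5%, against 6.32% of all genes), with a median log2 change of -0.22, or -0.13 without HFD library 2 and -0.34 without HFD library 3. With the 12 CAST/EiJ libraries alone 1 was called higher. Slc27a4, a fatty acid transport protein, was at 113, 92.3 and 98.4 CPM on CD and at 64.1, 40.8 and 52.6 CPM on HFD (log2 change -0.95 ± 0.14, adjusted p = 4.4e-06). Pparg, the adipogenic nuclear receptor that many fatty livers raise, was low throughout and lower on HFD, with 1.47, 3.65 and 3.27 CPM on CD and 0.829, 0.473 and 1.11 CPM on HFD (log2 change -1.79 ± 0.42, adjusted p = 0.0026). Both calls held in all 6 refits. The calls of the other 3 depended on CD library 1, which had the highest value of the 6 for each. Without it the adjusted p was 0.51 for Plin5, a droplet coat protein, 0.19 for Pnpla2, the adipose triglyceride lipase, and 0.30 for Fitm2, and all 3 calls were also lost without HFD library 2 (0.13, 0.067 and 0.14). Plin5 was further lost without HFD library 1 or 3 (0.073 and 0.077), Pnpla2 without HFD library 3 (0.061) and Fitm2 without CD library 3 or HFD library 1 (0.081 and 0.090). The number of members called lower was 2 without CD library 1 or HFD library 2 and 3 without HFD library 1. Plin2, the main coat protein of hepatocyte lipid droplets, was at 2225 CPM in CD library 1 and at 406 to 898 CPM in the other 5 libraries (log2 change -0.96 ± 0.37, adjusted p = 0.072). Without CD library 1 its log2 change was -0.10 (adjusted p = 0.91), and it was called lower without CD library 2 (adjusted p = 0.012) or HFD library 3 (0.044). Cd36, a fatty acid receptor, was at 205, 233 and 177 CPM on CD and at 92.3, 101 and 161 CPM on HFD (log2 change -0.79 ± 0.33, adjusted p = 0.094).

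Of 34 genes of fatty acid synthesis, 3 were higher (8.82%) and 4 lower (11.8%), against 6.72% and 6.32% of all genes. The number higher was 1 without CD library 3, HFD library 2 or HFD library 3. Mlxipl, which encodes the glucose-responsive factor ChREBP, rose from 112, 145 and 117 CPM to 230, 276 and 236 CPM (log2 change 0.99 ± 0.22, adjusted p = 0.0015), a call that held in all 6 refits. Srebf1, which encodes SREBP1, rose from 113, 51.1 and 88.7 CPM to 178, 170 and 221 CPM (log2 change 1.17 ± 0.37, adjusted p = 0.024), with adjusted p-values of 0.12, 0.056, 0.059 and 0.12 without CD library 2, CD library 3, HFD library 2 and HFD library 3. Acsl3, a fatty acyl-CoA synthetase, was the third higher gene (log2 change 0.90 ± 0.27, adjusted p = 0.020, and 0.061, 0.067, 0.10 and 0.15 without CD library 1, CD library 3, HFD library 2 and HFD library 3). Me1, malic enzyme, fell from 144, 123 and 141 CPM to 78.6, 52.0 and 48.0 CPM (log2 change -1.19 ± 0.25, adjusted p = 0.00080). Dgat1, of triglyceride synthesis, and Elovl1, a fatty acid elongase, also fell (log2 changes -0.73 ± 0.17 and -0.60 ± 0.13, adjusted p = 0.0021 and 0.00095). Fasn (-0.46 ± 0.34, adjusted p = 0.38), Scd1 (-1.06 ± 0.78, adjusted p = 0.38), Acly (0.28 ± 0.17, adjusted p = 0.28) and Acaca (-0.23 ± 0.20, adjusted p = 0.48) did not pass the test.

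In glucose metabolism, 4 of 27 genes were higher and 2 lower (14.8% and 7.41%, against 6.72% and 6.32% of all genes), and 1 library often set the value. The number higher was 0 without CD library 1 or HFD library 2 and 1 without HFD library 3, and the number lower was 0 without HFD library 2 or HFD library 3. G6pc, the glucose-6-phosphatase, was at 521, 1360.4 and 451 CPM on CD and at 407, 296 and 142 CPM on HFD (log2 change -1.47 ± 0.42, adjusted p = 0.015, and 0.22 without CD library 2, 0.063 without HFD library 2 and 0.14 without HFD library 3). Fbp1, fructose-bisphosphatase, rose from 421, 808 and 814 CPM to 906, 1489 and 1471 CPM (log2 change 0.92 ± 0.25, adjusted p = 0.0099, and 0.14 without CD library 1, 0.078 without HFD library 2 and 0.072 without HFD library 3). Among 24 lipoprotein genes, 4 were higher (16.7%) and 1 lower (4.17%), against 6.72% and 6.32% of all genes. The lower gene was Mttp (log2 change -0.54 ± 0.14, adjusted p = 0.0071, 0.061 without CD library 1 and 0.071 without HFD library 2). The count higher was 1 without CD library 1, CD library 3 or HFD library 2 and 0 without HFD library 3. Pltp, the phospholipid transfer protein, rose from 16.9, 19.7 and 13.6 CPM to 27.5, 39.0 and 42.3 CPM (log2 change 1.11 ± 0.28, adjusted p = 0.0056, and 0.050 without HFD library 3).

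**Figure D3:**
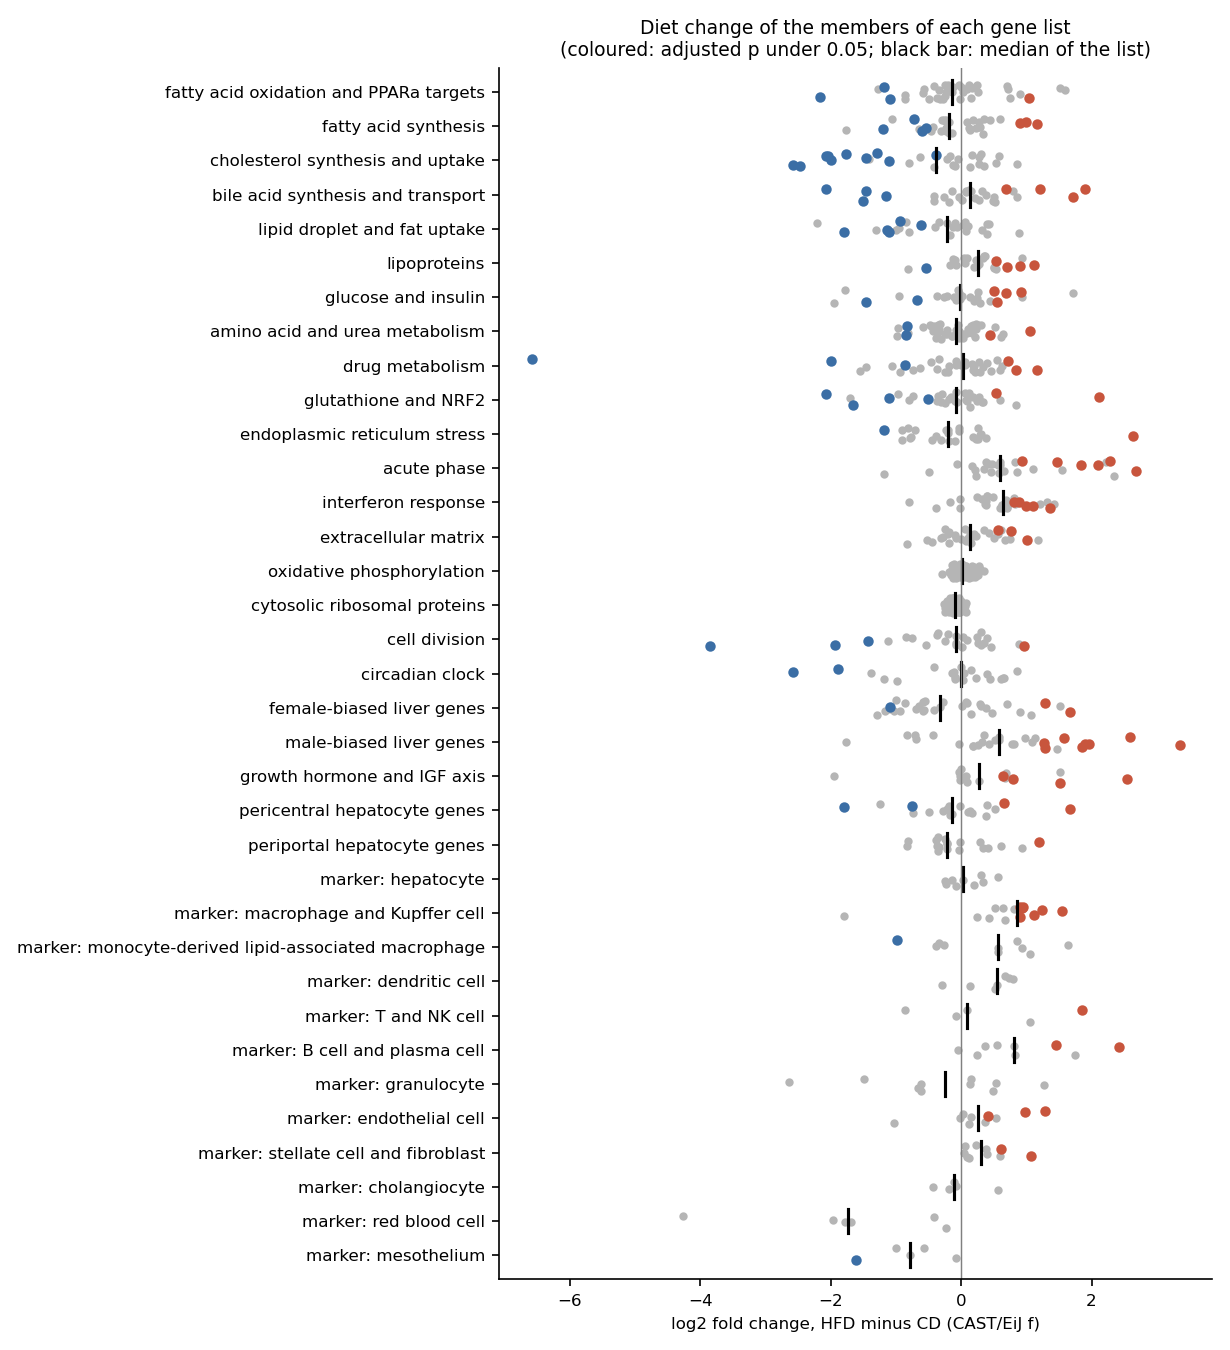
Each point is 1 gene of the list named on the left and its position on the horizontal axis is the log2 fold change between HFD and CD in CAST/EiJ f; coloured points passed an adjusted p of 0.05 and the black bar is the median of the list. Cholesterol synthesis lies to the left (median -0.39) and macrophage markers to the right (median 0.85). Oxidative phosphorylation genes lie on both sides of 0 (median 0.016), and ribosomal protein genes lie mostly just below 0 (median -0.089).

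Several macrophage and Kupffer cell markers were higher on HFD. Of 14 macrophage and Kupffer cell markers, 7 were higher and 0 lower, a share of 50% against 6.72% of all genes, with a median log2 change of 0.85 (0.56 without HFD library 3). Their summed level was 418, 400 and 347 CPM in the 3 CD livers and 530, 727 and 895 CPM in the 3 HFD livers, so that every HFD liver was above every CD liver. Cd5l, a scavenger protein secreted by Kupffer cells, was at 52.6, 49.8 and 39.7 CPM on CD and at 82.8, 136 and 195 CPM on HFD (log2 change 1.54 ± 0.30, adjusted p = 0.00031). Mpeg1, a pore-forming protein of macrophages, was at 53.9, 86.4 and 58.8 CPM on CD and at 121, 175 and 176 CPM on HFD (log2 change 1.25 ± 0.28, adjusted p = 0.0021). Both calls held in all 6 refits. Clec4f, a lectin of Kupffer cells, rose by 0.91 ± 0.22 (adjusted p = 0.0031, and 0.079 without HFD library 3), and Vsig4 by 0.90 ± 0.23 (adjusted p = 0.0069, and 0.13 without HFD library 3). Cd68 rose by 0.93 ± 0.24 (adjusted p = 0.0071, with 0.070 without CD library 1 and 0.057 without HFD library 3). Cd14 was the 1 marker of the 14 with a negative log2 change and did not pass the edgeR test, at 51.6, 13.8 and 22.8 CPM on CD and 5.81, 7.25 and 12.5 CPM on HFD. The number of macrophage markers called higher was 5 without CD library 1, 9 without HFD library 1 and 2 without HFD library 3, and 0 with the 6 libraries alone. In this list 1 marker was called lower by DESeq2, with the 12 CAST/EiJ libraries alone or without CD library 2. Of 10 markers of monocyte-derived lipid-associated macrophages, 0 were higher by edgeR (1 by DESeq2 or limma, with the female libraries alone, or without CD library 3 or HFD library 1) and 1, Cd9, was lower (10%, against 6.32% of all genes). The median log2 change of these markers was 0.57 (0.37 without HFD library 3). No marker of that list was called lower without CD library 1, HFD library 2 or HFD library 3. The list had summed levels of 35.1 to 51.9 CPM on CD and 36.4 to 39.4 CPM on HFD.

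Of 10 endothelial markers, 3 were higher (30%, against 6.72% of all genes) and 0 lower (1 lower by DESeq2, with a filter on low counts, with the 12 CAST/EiJ libraries alone or without CD library 3). Their median log2 change was 0.26 (0.17 without HFD library 3). Clec4g, a lectin of sinusoidal endothelium, was at 14.6, 20.0 and 12.6 CPM on CD and at 22.5, 44.6 and 47.5 CPM on HFD (log2 change 1.28 ± 0.18, adjusted p = 4.2e-07). Fcgr2b, an Fc receptor of the same cells, was at 28.3, 38.5 and 27.5 CPM on CD and at 44.1, 68.5 and 73.6 CPM on HFD (log2 change 0.98 ± 0.16, adjusted p = 2.9e-05). Both calls held in all 6 refits, and both genes were also called higher in CAST/EiJ m (0.95, adjusted p = 0.00022, and 0.70, adjusted p = 0.0053). The summed level of the endothelial markers overlapped between diets, at 251 to 301 CPM on CD and 274 to 409 CPM on HFD. Of 10 stellate cell and fibroblast markers, 2 were higher, Hgf and Rgs5 (20%, against 6.72% of all genes), and 0 lower. All 10 had positive log2 changes and the median was 0.31 (0.16 without HFD library 3). Their summed level was 345 to 417 CPM on CD and 404 to 474 CPM on HFD, and the number higher was 0 without CD library 3 or HFD library 2 and 1 without CD library 1 or HFD library 3.

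Igha and Jchain, transcripts of antibody-secreting cells, were low and rose. Igha, the heavy chain of immunoglobulin A, was at 0.770, 1.14 and 1.02 CPM on CD and at 5.12, 4.49 and 13.8 CPM on HFD (log2 change 3.00 ± 0.58, adjusted p = 0.00028). Jchain, which joins immunoglobulin A units, was at 0.251, 0.669 and 0.549 CPM on CD and at 1.85, 2.15 and 3.74 CPM on HFD (log2 change 2.41 ± 0.48, adjusted p = 0.00044). Cd4 was at 0.351, 0.755 and 1.14 CPM on CD and at 4.34, 1.70 and 2.00 CPM on HFD (log2 change 1.85 ± 0.35, adjusted p = 0.00017), the only called gene of 5 T and NK cell markers found (20%, against 6.72% of all genes called higher). Of these 5 markers, 3 had a positive and 2 a negative log2 change, and the median was 0.086. Of 9 B cell and plasma cell markers found, 2 were higher, Jchain and Igkc (22.2%, against 6.72% of all genes). The log2 change of Igkc was 1.45 (adjusted p = 0.021, and 0.13, 0.073, 0.058 and 0.16 without CD library 1, CD library 3, HFD library 2 and HFD library 3). These 9 markers had summed levels of 7.35 to 9.96 CPM on CD and 12.0 to 18.7 CPM on HFD, and the number higher was 3 without CD library 2. Of 5 mesothelial markers found, 0 were higher and 1, Lrrn4, was lower (20%, against 6.32% of all genes). Their median log2 change was -0.79 (-0.43 without CD library 3), with summed levels of 5.17 to 8.31 CPM on CD and 3.62 to 4.19 CPM on HFD. The adjusted p of Lrrn4 was 0.021, and 0.12, 0.097 and 0.10 without CD library 1, HFD library 2 and HFD library 3. Of 10 granulocyte, 7 dendritic cell and 5 cholangiocyte markers found, 0 were called by edgeR over all 36 groups or by DESeq2, and 1 of each list had an unadjusted p under 0.05. In edgeR refits 1 cholangiocyte marker was called higher with the female libraries alone and 1 lower without CD library 2 or HFD library 1. In the refit without CD library 2, 1 dendritic cell marker was called higher. Of 6 red blood cell markers, 0 were called, 4 had an unadjusted p under 0.05 and all 6 were lower in value on HFD (median log2 change -1.74). This direction rested on CD library 3, without which the median was 0.24. Without CD library 2 it was -2.24 with 2 called lower, and without HFD library 3 it was -2.69. Red blood cell markers summed to 16.2, 9.15 and 114 CPM on CD and to 6.91, 10.2 and 28.1 CPM on HFD, and none of 10 exocrine pancreas markers was among the genes used here. The part of a changed cell mixture in the changes of other genes was not tested.

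Several acute phase and interferon response genes were higher on HFD. Of 28 acute phase genes, 6 were higher (21.4%, against 6.72% of all genes) and 0 lower, with a median log2 change of 0.60. The count higher was 3 without CD library 1 or CD library 3 and 4 without HFD library 2. Without HFD library 3 the count was 0 and the median 0.14, whereas without HFD library 1 it was 11 higher and 1 lower with a median of 0.84. Summed acute phase counts were 54179, 55434 and 36695 CPM on CD and 43393, 69343 and 118541 CPM on HFD. Itih4, a plasma inhibitor heavy chain, was at 3582, 4156 and 2528 CPM on CD and at 3794, 7855 and 16669.9 CPM on HFD (log2 change 1.46 ± 0.32, adjusted p = 0.0015, and 0.16 without HFD library 3). Saa1, a serum amyloid A, was at 363, 518 and 43.5 CPM on CD and at 59.9, 522 and 3716 CPM on HFD and did not pass the test (adjusted p = 0.24). Of 33 interferon response genes, 5 were higher (15.2%, against 6.72% of all genes) and 0 lower, with a median of 0.64, or 0.35 without HFD library 3. Their summed level was 888, 972 and 1033 CPM on CD and 1097, 1264 and 1484 CPM on HFD, so that every HFD liver was above every CD liver. The count higher was 1 without CD library 1, 2 without CD library 2 (and 1 lower), 3 without CD library 3, 9 without HFD library 1, 1 without HFD library 2 and 0 without HFD library 3. Ifitm3, an interferon-induced membrane protein listed here with the periportal genes, rose from 110, 133 and 105 CPM to 156, 284 and 360 CPM (log2 change 1.20 ± 0.26, adjusted p = 0.0012), a call that held in all 6 refits. The median of the interferon list in the other 8 strains f was 0.63.

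Of 29 genes with higher levels in males, 8 were higher on HFD in these f livers and 0 lower. The share higher was 27.6%, against 6.72% of all genes. The median log2 change was 0.58 in CAST/EiJ f, 0.50 in CAST/EiJ m and -0.057 in the mean of the other 8 strains f. In CAST/EiJ m 1 gene of the list was called higher, against 1.83% of all genes, and 0 lower. The summed level overlapped between the diets in f, at 2469 to 3510 CPM on CD and 3507 to 5012 CPM on HFD. C9, the pore-forming last component of complement, was at 28.05, 37.4 and 32.7 CPM on CD and at 105, 135 and 142 CPM on HFD (log2 change 1.96 ± 0.31, adjusted p = 1.0e-05). It was the 1 gene of the list that held in all 6 refits. Mup17, a major urinary protein that is not in the list, was at 7.08, 10.1 and 8.37 CPM on CD and at 116, 143 and 34.7 CPM on HFD (log2 change 3.52 ± 0.58, adjusted p = 2.9e-05), a call that also held in all 6 refits. Mup genes are near-identical copies, so the split of reads between them is uncertain. Mup3 rose by 1.29 ± 0.41 (adjusted p = 0.029, with 0.056 without CD library 1, 0.14 without CD library 3, 0.078 without HFD library 2 and 0.16 without HFD library 3). Male-biased members that did not pass included Cyp4a12a, at 3.63 to 9.23 CPM on CD and 1.76 to 14.6 CPM on HFD, and Elovl3, at 2.44 to 4.32 CPM on CD and 0.495 to 1.76 CPM on HFD (log2 change -1.77, adjusted p = 0.071). Elovl3 was called lower by DESeq2, by limma, with the 12 CAST/EiJ libraries alone or without HFD library 1. The count of male-biased genes called higher was 1 without CD library 1 or HFD library 2, 2 without CD library 3 and 4 without HFD library 3. Of 31 female-biased genes, 2 were higher (6.45%, against 6.72% of all genes) and 1 lower (3.23%, against 6.32%). The median was -0.33 (-0.21 without CD library 2 and -0.12 without HFD library 1), and it was -0.32 in CAST/EiJ m. The list summed to 19139, 17776 and 17877 CPM on CD and to 13163, 13974 and 11949 CPM on HFD, so that every HFD liver was below every CD liver. The number of female-biased genes called higher was 0 to 3 over the refits. Of 15 genes of the growth hormone and IGF axis, 4 were higher (26.7%, against 6.72% of all genes) and 0 lower. The count higher was 0 without CD library 1, HFD library 2 or HFD library 3 and 2 without CD library 3. Igf1 was at 461, 467 and 412 CPM on CD and at 409, 924 and 754 CPM on HFD (log2 change 0.64 ± 0.19, adjusted p = 0.017), with HFD library 1 below every CD library. The adjusted p was 0.062 without CD library 1, 0.067 without CD library 3, 0.28 without HFD library 2 and 0.095 without HFD library 3.

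Among the other large changes, Slc13a5, the citrate importer of the hepatocyte, rose from 0.937, 1.55 and 0.921 CPM to 5.12, 9.07 and 14.3 CPM (log2 change 3.07 ± 0.60, adjusted p = 0.00032). Ptgfr, a prostaglandin receptor, fell from 4.30, 10.7 and 7.47 CPM to 1.51, 0.860 and 0.348 CPM (log2 change -3.04 ± 0.65, adjusted p = 0.0010). Cyp26a1, which degrades retinoic acid, fell from 4.23, 5.24 and 4.33 CPM to 1.28, 0.129 and 0.0434 CPM (log2 change -3.24 ± 0.80, adjusted p = 0.0042, and 0.058 without HFD library 2 or HFD library 3). Over the 6 refits its log2 change ranged from -5.69 to -2.71. Cdkn1a, the cell cycle inhibitor p21, was at 108, 16.8 and 5.19 CPM on CD and at 3.55, 1.40 and 4.06 CPM on HFD (log2 change -3.85 ± 0.94, adjusted p = 0.0038). Its high value lay in CD library 1, without which the change was -1.87 with an adjusted p of 0.22, and it was 0.051 without HFD library 2. The same library stood apart in the clock genes Arntl (24.95, 3.73 and 3.53 CPM on CD, 4.17, 2.58 and 2.02 CPM on HFD) and Npas2 (7.46, 0.992 and 1.10 CPM on CD, 1.06, 0.344 and 0.196 CPM on HFD). Without it their adjusted p-values of 0.015 and 0.014 became 0.80 and 0.52, and both calls were also lost without HFD library 2 (0.085 and 0.098) or HFD library 3 (0.099 and 0.11). Gstt3, a glutathione transferase, fell from 271, 269 and 293 CPM to 122, 76.4 and 66.0 CPM (log2 change -1.65 ± 0.38, adjusted p = 0.0026). Of 67 oxidative phosphorylation genes 0 were called by edgeR or DESeq2 and 3 had an unadjusted p under 0.05, and of 66 cytosolic ribosomal protein genes 0 were called by either tool and 0 had an unadjusted p under 0.05. Even so, 61 of the 66 ribosomal protein genes had a negative log2 change and 5 a positive one, with a median of -0.089. This median was -0.13 in CAST/EiJ m and -0.12 in the mean of the other 8 strains f.

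In CAST/EiJ m, 619 genes were called by the same rule, 262 higher (1.83% of all genes) and 357 lower (2.49%). Of the 1869 genes called in f, 1710 (91.5%) had the same sign in m, against 72.1% of all genes, 335 were also called in m, and 333 of these had the same direction. The difference between the f and the m effect was called in 5 genes, 0.0349% of all, and 872 genes had an unadjusted p under 0.05. A gene called in f alone is therefore not shown to differ between the sexes. Adam11, a membrane protein of the disintegrin family, rose in f from 5.64, 4.92 and 3.53 CPM to 11.8, 9.31 and 8.26 CPM (1.06 ± 0.34) and fell in m (-1.41), a difference of 2.47 (adjusted p = 0.012). Il3ra, a cytokine receptor chain, rose in f from 1.27, 1.21 and 1.22 CPM to 2.30, 1.70 and 1.93 CPM (0.68 ± 0.18) and fell in m (-0.61), a difference of 1.29 (adjusted p = 0.012). Dop1b was lower on HFD in f by -0.68 and in m by -2.20, a difference of 1.52 (adjusted p = 0.022). Arhgef10, a guanine nucleotide exchange factor, fell in f from 7.46, 6.06 and 5.74 CPM to 3.32, 3.20 and 2.76 CPM (-1.05 ± 0.16) with a change of 0.018 in m, a difference of -1.07 (adjusted p = 0.037). Cyp3a11, the main drug-metabolising P450 of the mouse liver, overlapped between diets in f (114, 83.0 and 58.9 CPM on CD, 65.7, 27.2 and 71.9 CPM on HFD) and fell in m (-3.78, adjusted p = 4.3e-09), a difference of 3.14 (adjusted p = 0.0054). In f alone, the call of Adam11 was lost without any single library other than CD library 2 (adjusted p 0.052 to 0.12), and that of Dop1b without CD library 1, HFD library 2 or HFD library 3 (0.20, 0.16 and 0.11). The count of 5 became 69 without f HFD library 1, 9 or 10 without f CD library 3 or f CD library 2, 8 or 9 without m CD library 3 or m CD library 1, and 1 to 3 without m HFD library 3, m HFD library 1 or m CD library 2. With any 1 of the 12 CAST/EiJ libraries left out, the call of the difference was lost in 7 of 12 refits for Arhgef10 (adjusted p 0.054 to 0.37), in 6 for Dop1b (0.051 to 0.098), in 2 for Il3ra (0.054 and 0.098), in 1 for Adam11 (0.098) and in 0 for Cyp3a11. With the 12 CAST/EiJ libraries alone the adjusted p of the difference was above 0.05 for all 5 genes (0.089 to 1.00).

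**Figure D4:**
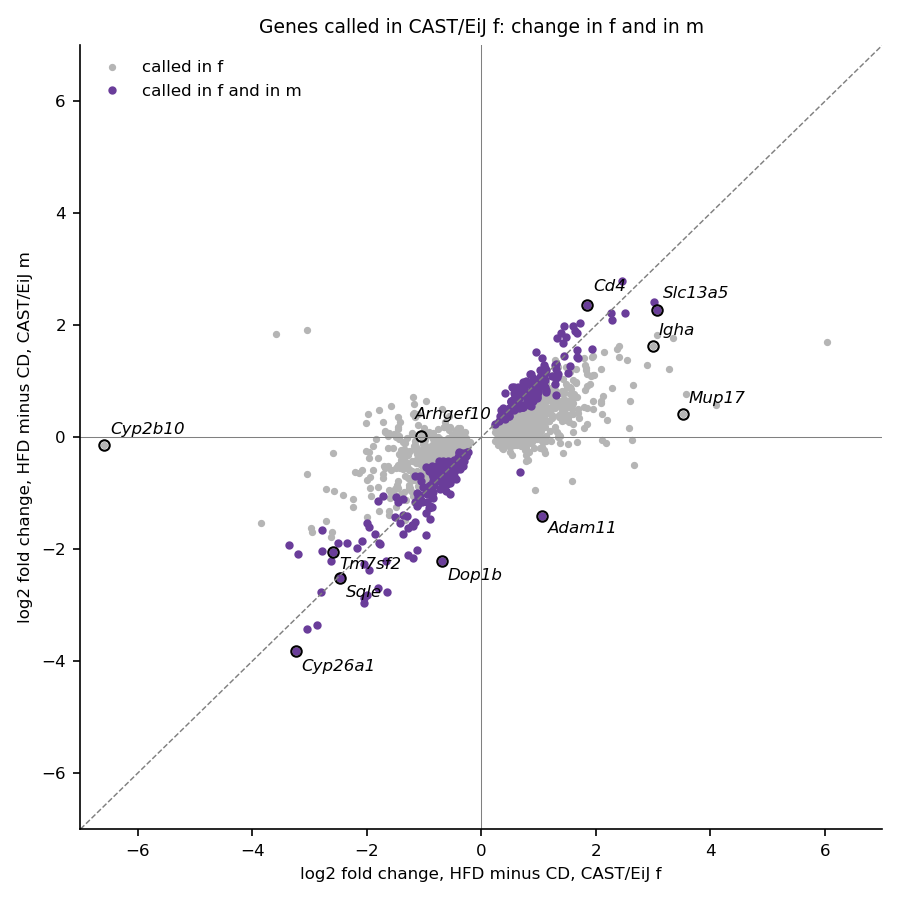
Each point is 1 of the 1869 genes called in CAST/EiJ f, plotted by its log2 fold change in f (horizontal) and in m (vertical); the dashed line marks equal change and purple points were called in both sexes. Most points lie in the 2 quadrants of equal sign, Cyp2b10 lies far left at a change near 0 in m, and Adam11 and Dop1b lie away from the line.

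The effect in CAST/EiJ f differed from the mean effect in f of the other 8 strains in 669 genes, 338 in the higher direction (2.36% of all genes) and 331 in the lower direction (2.31%). The library labelled 129S1/SvImJ f CD replicate 1 had Xist at 0.891 CPM against at least 196 CPM in the other f libraries of these strains, which goes against its label, and 675 genes were called without it. The number of genes called was 351 without CD library 1, 1531 without HFD library 1, 141 without HFD library 2 and 139 without HFD library 3. Tm7sf2 fell by 0.45 on the log2 scale in the mean of the other strains, and the difference was -2.13 (adjusted p = 9.5e-07). Pmvk fell by 0.16, with a difference of -1.83 (adjusted p = 1.0e-08). Both falls were the largest of the 9 strains. Cyp51 and Dhcr7 also fell more than that mean, with differences of -1.47 (adjusted p = 0.019) and -1.07 (adjusted p = 0.024), although 1 of the 8 strains had a lower value for Cyp51. Both of these differences were lost without CD library 1 (adjusted p = 0.076 and 0.067), HFD library 2 (0.14 and 0.21) or HFD library 3 (0.080 and 0.064), and that of Dhcr7 also without CD library 3 (0.092). The difference of Sqle, -1.59, did not pass (adjusted p = 0.065). Of the 29 cholesterol genes, 5 had a lower and 0 a higher difference.

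Several genes moved against the other strains. Ces1g fell by 1.99 in CAST/EiJ f and rose by 0.64 in the mean of the others, a difference of -2.63 (adjusted p = 1.4e-05). Car3, a carbonic anhydrase, was at 7.30, 16.5 and 4.94 CPM on CD and at 4.72, 4.02 and 3.37 CPM on HFD. Its own change of -1.24 ± 0.66 did not pass (adjusted p = 0.20), but the other strains rose by 1.72 and the difference of -2.97 did (adjusted p = 0.0083). Pparg and Cd36 also differed from the mean of the others, with other strains at 0.42 and 0.50 and differences of -2.21 (adjusted p = 0.0014) and -1.29 (adjusted p = 0.019). Ppara differed by 1.13 (adjusted p = 0.0062) and Abcc3 by -1.41 (adjusted p = 4.3e-05). Cyp2b10 was lower on HFD in f of all 9 strains, with differences of mean log2 CPM from -4.29 to -1.34 in the other 8, and the difference in the fit was -4.17 (adjusted p = 0.0050, and 0.061 without HFD library 2). Acot5 (-2.87, adjusted p = 0.00015), Gprin2 (-2.82, adjusted p = 0.0022) and BC049987 (-3.21, adjusted p = 0.0093) also fell more, and the difference of BC049987 was lost without HFD library 2 or HFD library 3 (0.072 and 0.075). Without HFD library 2 or HFD library 3 the adjusted p was 0.058 or 0.065 for Car3, without HFD library 2 it was 0.12 for Cd36, and without HFD library 3 it was 0.14 for Ppara.

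In the upward direction, the difference was 2.71 for Mup17 (adjusted p = 0.0039), 2.71 for Igha (adjusted p = 0.0046), 2.88 for Slc13a5 (adjusted p = 0.0036), 2.30 for Slco1a1 (adjusted p = 0.017) and 4.02 for the processed pseudogene Gm6166 (adjusted p = 0.0021). For Mup17 and Igha, 1 of the other 8 strains had a larger value. Osgin1, an oxidative stress response gene, was at 39.1, 48.0 and 21.2 CPM on CD and at 52.7, 95.3 and 319 CPM on HFD; its difference was 2.01 (adjusted p = 0.033), and its own call had an adjusted p of 0.057 without CD library 3 and 0.30 without HFD library 3. C9 differed by 1.40 (adjusted p = 0.0050), Clec4g by 1.04 (adjusted p = 0.00022) and Fcgr2b by 0.80 (adjusted p = 0.0030), and in all 3 the rise was the largest of the 9 strains. The macrophage genes did not show a tested difference, with Cd5l at 0.73 (adjusted p = 0.15) and Mpeg1 at 0.54 (adjusted p = 0.29) above the mean of the others. Without HFD library 3 the adjusted p of the difference was 0.064 for Fcgr2b and 0.091 for Igha. The difference of Slco1a1 was lost without CD library 1, CD library 3, HFD library 2 or HFD library 3 (0.070, 0.079, 0.11 and 0.052), and that of Osgin1 without CD library 1, CD library 3, HFD library 2 or HFD library 3 (0.082, 0.13, 0.055 and 0.49). The other named differences were below 0.05 in all 6 refits.

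**Figure D5:**
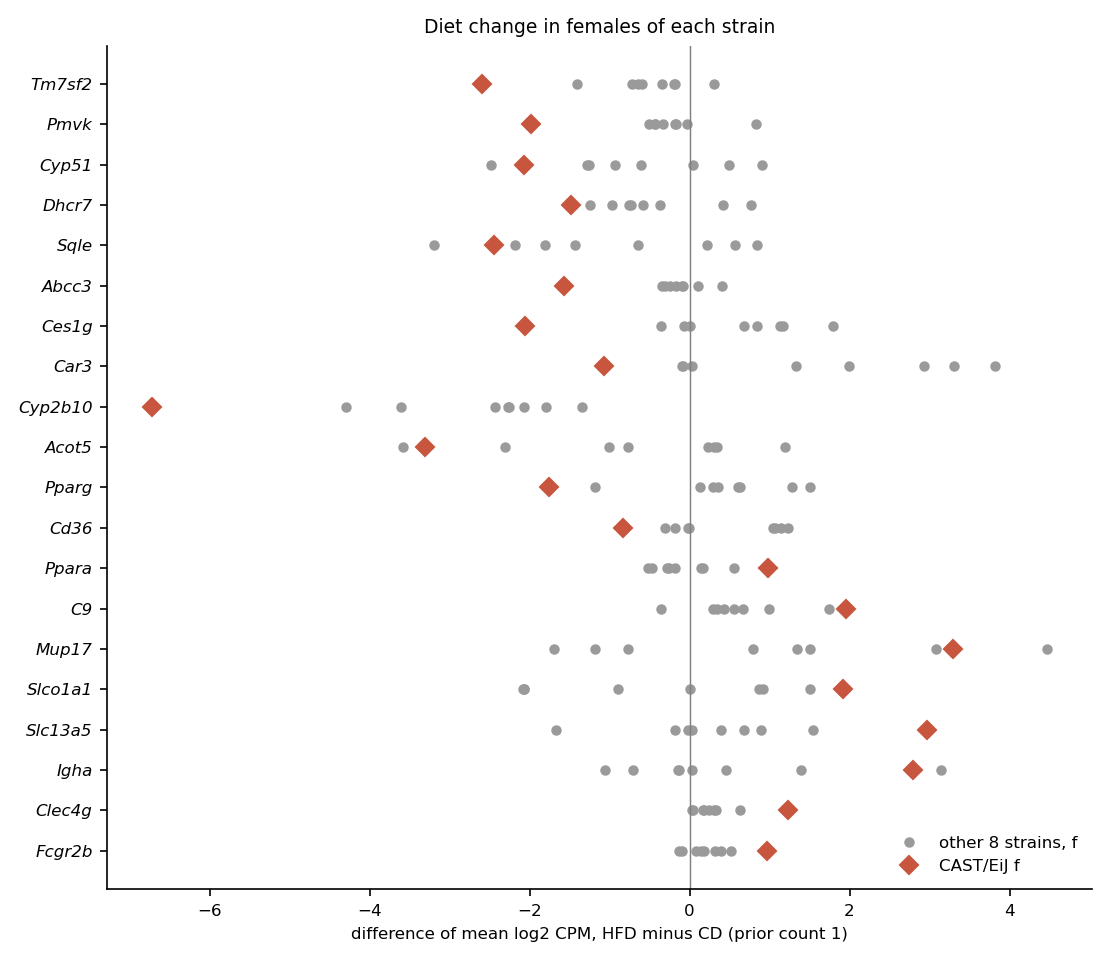
Points give the diet change in f of each strain as the difference of mean log2 CPM (prior count 1) between HFD and CD, with CAST/EiJ as diamonds and the other 8 strains as circles. CAST/EiJ has the lowest value of the 9 for Tm7sf2, Pmvk, Dhcr7, Abcc3, Ces1g, Car3, Cyp2b10, Pparg and Cd36 and the highest for Ppara, C9, Slco1a1, Slc13a5, Clec4g and Fcgr2b.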

How the data were processed

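Liver RNA-seq libraries, 1 per mouse, were read from 1 table of counts per gene that the authors deposited. It was taken as raw counts because its values are whole numbers whose totals differ between libraries, although its name speaks of TMM. The submitters' processing notes name FastQC, STAR 2.73a and edgeR 3.24.3, while the genome build, annotation and strand setting of the counting are not given in the sources used here. The 3 summary lines were left out, leaving 14330 genes, and no gene in the table had fewer than 359 counts over all libraries. Among the 6 CAST/EiJ f libraries, 19.8 to 20.6% of tallied reads were not unique, 4.76 to 5.27% ambiguous and 4.40 to 8.40% outside genes.

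Counts were scaled by TMM, and 1 model of 36 group means (70 residual degrees of freedom) was fitted with edgeR 4.0.16 in R 4.3.3 by the quasi-likelihood method. Adjusted p-values are Benjamini-Hochberg over all 14330 genes, and log2 fold changes are HFD minus CD with an approximate standard error (SE). This SE is the absolute log2 fold change divided by the square root of the F statistic of its test. The script was tested on simulated data. Differences from CAST/EiJ m and from the mean of the other 8 strains f were contrasts of the same fit. The p-values measure the spread between mice. Named genes are 43 genes of a panel, the 12 with the largest fall and the 12 with the largest rise at a mean of at least 1 CPM and no overlap, up to 5 called members per list and direction, and the 6 largest differences per contrast and direction. Members and lists were chosen with earlier results of these data known, and the other genes named were chosen after their values were seen. Alternatives were other normalisation factors, a filter on low counts, limma 3.58.1, DESeq2 1.42.0, fewer groups in the fit and leaving out each library. Standard errors rest on a spread estimated over all 36 groups and include counting error. Some genes are not reported here.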

Additional observations from a re-analysis of the deposited data

Results flagged for a closer look

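The diet effect differed between CAST/EiJ f and CAST/EiJ m in 5 genes by a test of the difference itself (edgeR, adjusted p under 0.05). The f effect minus the m effect was 3.14 for Cyp3a11, 2.47 for Adam11, 1.52 for Dop1b, 1.29 for Il3ra and -1.07 for Arhgef10 on the log2 scale. With 1 of the 12 CAST/EiJ libraries left out, the call was lost in 0 of 12 refits for Cyp3a11, 1 for Adam11, 6 for Dop1b, 2 for Il3ra and 7 for Arhgef10. For Adam11 and Il3ra the 2 sexes changed in opposite directions.

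The diet effect differed between CAST/EiJ f and the mean of the other 8 strains f in 669 genes. The named differences, CAST/EiJ f effect minus the mean effect of the others, were -4.17 for Cyp2b10, -3.21 for BC049987, -2.97 for Car3, -2.87 for Acot5, -2.82 for Gprin2 and -2.63 for Ces1g. In the upward direction they were 4.02 for Gm6166, 2.88 for Slc13a5, 2.71 for Mup17, 2.71 for Igha, 2.30 for Slco1a1 and 2.01 for Osgin1. Within CAST/EiJ f, Osgin1 was at 319 CPM in HFD library 3 and at 21.2 to 95.3 CPM in the other 5 libraries. Without HFD library 3 the difference of Osgin1 from the other strains was 0.92.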

How the results depend on the processing

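With other normalisation factors, a filter on low counts, no abundance trend, limma, DESeq2, the f libraries alone or a minimum absolute log2 change of 0.5, the number of genes changed by diet in CAST/EiJ f ranged from 1366 to 2101 against 1869. With the 12 CAST/EiJ libraries alone it was 434 and with the 6 f libraries alone 5 (2682 at an unadjusted p under 0.05); fewer samples estimate the spread in these fits. Leaving out 1 library at a time gave 524 to 2740 genes, 1 to 69 genes for the difference from m, and 139 to 1531 genes for the difference from the other strains; the cause was not tested. The difference from m was called in 10 genes by DESeq2 and in 0 with the 12 CAST/EiJ libraries alone (540 at an unadjusted p under 0.05). Of the 1869 genes, 1866 or more kept their direction in the refits without 1 library. Without 1 library, 5 uncalled genes named here changed sign, with log2 changes from -0.42 to 0.041 for Acaca (0.041 without CD library 2), -1.12 to 3.18 for Cyp7a1, -0.093 to 2.82 for Saa1, -1.12 to 0.42 for Cyp4a12a and -0.22 to 0.096 for Hmgcs1. No paired analysis was possible because the labels give no replicate numbers, only animal numbers that no diet shares. Genes near 1 CPM, such as Igha and Jchain on CD, rest on few counts, and the part of counting error in their values was not tested.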

Other observations

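The genes of the terminal complement pathway, whose products assemble the pore of the membrane attack complex, were a set written after the values were seen. All 7 (Hc, C6, C7, C8a, C8b, C8g and C9) had higher mean values on HFD in CAST/EiJ f, 5 passed the test, against 6.72% of all genes called higher, and the median log2 change was 0.92. C8a was at 105, 226 and 83.2 CPM on CD and at 351, 584 and 659 CPM on HFD (log2 change 1.95 ± 0.37, adjusted p = 0.00028). C8b was at 152, 192 and 126 CPM on CD and at 323, 465 and 435 CPM on HFD (log2 change 1.38 ± 0.31, adjusted p = 0.0018). Hc, which encodes C5, was at 537, 525 and 433 CPM on CD and at 683, 1111 and 1039 CPM on HFD, and C8g was at 97.1, 125 and 106.1 CPM on CD and at 206, 193 and 214 CPM on HFD. C7 (adjusted p = 0.056) and C6 (adjusted p = 0.18) did not pass. Leaving out any 1 of the 6 libraries left 5 or 6 called, and with the 6 libraries alone 1 was called. In CAST/EiJ m 1 of the 7 was called higher (1.83% of all genes) and the median was 0.50, and in the mean of the other 8 strains f it was 0.25, with the difference from that mean called higher in 3 of the 7 (2.36% of all genes).

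Genes of the 26S proteasome, which degrades proteins marked with ubiquitin, were a second set written after the values were seen. The set was taken by symbol (Psma, Psmb, Psmc or Psmd with a number). It includes Psmd5, Psmd9 and Psmd10, which are assembly factors and not subunits, and Psma8, at most at 0.085 CPM. Of the 38 genes, 17 were lower on HFD and 1 higher, against 6.32% lower and 6.72% higher of all genes, and the median log2 change was -0.34. Psmd4, a ubiquitin receptor of the regulatory particle, was at 256, 157 and 189 CPM on CD and at 115, 83.0 and 92.0 CPM on HFD (log2 change -1.05 ± 0.16, adjusted p = 5.0e-06). Psmd3 fell from 171, 156 and 152 CPM to 114, 84.4 and 94.5 CPM (log2 change -0.71 ± 0.12, adjusted p = 3.4e-05), and Psmc1 fell from 249, 207 and 216 CPM to 180, 121 and 131 CPM (log2 change -0.64 ± 0.11, adjusted p = 8.0e-05). These 3 calls held with any 1 library left out. The 1 gene that was higher, Psmb10 (8.72, 17.0 and 14.1 CPM on CD, 17.5, 22.3 and 28.5 CPM on HFD, adjusted p = 0.026), was not called without CD library 1, HFD library 2 or HFD library 3. It encodes an interferon-induced subunit of the immunoproteasome, as do Psmb8 (log2 change 0.64, adjusted p = 0.16) and Psmb9 (0.40, adjusted p = 0.58). The number lower was 5 without CD library 1, 6 without HFD library 2, 9 without HFD library 3 and 0 with the 6 libraries alone. In CAST/EiJ m 2 were lower (2.49% of all genes) and the median was -0.09, in the mean of the other 8 strains f the median was -0.08, and the difference from that mean was called lower in 6 of the 38 (2.31% of all genes).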
